A study of Mus musculus with 4 samples.

Results

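The genes described here encode 10 receptors of natural killer (NK) cells, taken by symbol from a table of 16230 genes. They are 4 Ly49 genes (Klra4, Klra7, Klra8 and Klra9), 3 genes of the NKG2 and CD94 group (Klrk1, Klrd1 and Klre1), 2 NKR-P1 genes (Klrb1c and Klrb1f), and Ncr1, which encodes the natural cytotoxicity receptor NKp46. All 10 were found. Spleens of Rag-/- mice that had colitis 8 weeks after an injection of naïve CD4 T cells gave the sorted CD3+CD4+ cells whose RNA was measured. The donor cells were either ERafl/fl, with loxP-flanked alleles of the estrogen receptor α gene Esr1 (controls, 2 libraries), or CD4creERafl/fl, with the same alleles and a Cre recombinase driven from Cd4 (2 libraries, written CD4cre 1 and 2). Both groups thus shared the Rag-deficient host, the flanked alleles, the transfer and the colitis. The labels do not say whether a group's 2 libraries are from different mice, nor how many mice each holds, so the p-values reflect library-to-library spread that may be technical.

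A Rag-deficient host makes no T or B cells of its own but keeps its NK cells and myeloid cells. NK cells kill infected or transformed cells without an antigen receptor made by gene rearrangement, and they read their targets through a balance of activating and inhibitory receptors. In the mouse the lectin-like Ly49 and CD94/NKG2 receptors bind class I histocompatibility molecules or their relatives, and NKR-P1 receptors bind lectin-like CLEC2 proteins. Inhibitory members carry a tyrosine motif (ITIM) in the cytoplasmic tail that recruits phosphatases, whereas activating members signal through adaptor proteins such as DAP12 (Tyrobp) and DAP10 (Hcst). Some of these receptors, NKG2D and CD94 among them, can also be made by activated or memory T cells, while NKp46 is a defining marker of NK cells and related innate lymphocytes.

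The 4 libraries were shallow: the depth estimated from the steps between low values was 709000 fragments for control 1, 676000 for control 2, 508000 for CD4cre 1 and 563000 for CD4cre 2. The unit is FPKM, fragments scaled to transcript length and library size, which summed to 444640 to 450656 per library. Esr1, the targeted gene, stood at 0.23 FPKM in control 1 and 1.96 FPKM in CD4cre 2 and was listed at 0 in the remaining libraries. Its level thus did not follow the genotype labels, and values this low cannot check them. The second group is therefore named by its label, as libraries labelled CD4cre. A value listed at 0 can be a failed assignment of fragments between similar transcripts, so values are given library by library. The libraries also differed in cell type markers: all 16 genes of the T cell marker list were lower without overlap in the CD4cre libraries (25.7% of all tested genes were), and 17 of 18 macrophage and monocyte markers were higher without overlap (23.2% of all tested genes were).

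Of the receptor genes, 9 lie together on chromosome 6 (GRCm38, chr6:128778485-130233322), in the natural killer gene complex, and Ncr1 lies on chromosome 7 (4337715 to 4345184), where leukocyte receptor genes of the immunoglobulin family are grouped. Because Ly49 genes are close copies of each other, their coding sequence decides both what each receptor does and how well fragments can be assigned to it. The first 60 coding bases of the 4 Ly49 members (GENCODE vM21 transcripts, GRCm38, 5′ to 3′) are shown because they hold the motif that separates inhibitory from activating receptors, with codon 8, the position of the motif's tyrosine, in capitals:
Klra7: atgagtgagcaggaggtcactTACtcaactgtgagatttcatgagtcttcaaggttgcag
Klra9: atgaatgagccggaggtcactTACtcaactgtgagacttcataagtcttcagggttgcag
Klra8: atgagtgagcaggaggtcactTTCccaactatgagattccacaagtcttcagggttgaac
Klra4: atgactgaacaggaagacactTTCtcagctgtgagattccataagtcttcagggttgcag
Codon 8 encodes tyrosine in Klra7 (Ly49G) and Klra9 (Ly49I), both inhibitory receptors, and phenylalanine in Klra8 (Ly49H) and Klra4 (Ly49D), both activating receptors. The change is A23T, counted from 1 at the first base of the start codon, with the base of Klra7 first. Over these 60 bases Klra9 differed from Klra7 at 5 positions, and Klra8 and Klra4 each at 9.

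Over the whole coding sequence, Klra8 and Klra9 were the closest pair, with 91.9% identical bases over 798 aligned positions, although one is an activating and the other an inhibitory receptor. The other Ly49 pairs had 77.9% to 84.3%. Of all windows of 50 bases in the transcript, 33.1% of those of Klra8 and 32.4% of those of Klra9 occurred without mismatch in transcripts of other genes. For Klra8 the largest share was with the pseudogene Klra14-ps (20.4%) and then with Klra9 (10.7%). For Klra9 it was with Klra3 (13.6%) and Klra10 (13.5%), and Klra7 shared 15.1% of its windows with Klra13-ps. Klra4 shared 4.68%. Klrb1c shared 18.1%, most of it with Gm44511 (13.9%), whose exons overlap it on the same strand over 413 bases. Ncr1, Klrd1, Klrk1, Klre1 and Klrb1f shared no such window with any other gene. Values of the 4 Ly49 genes and Klrb1c are therefore uncertain in how they divide among relatives, and those of the other 5 are not subject to this limit at this window length.

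**Figure D1:**
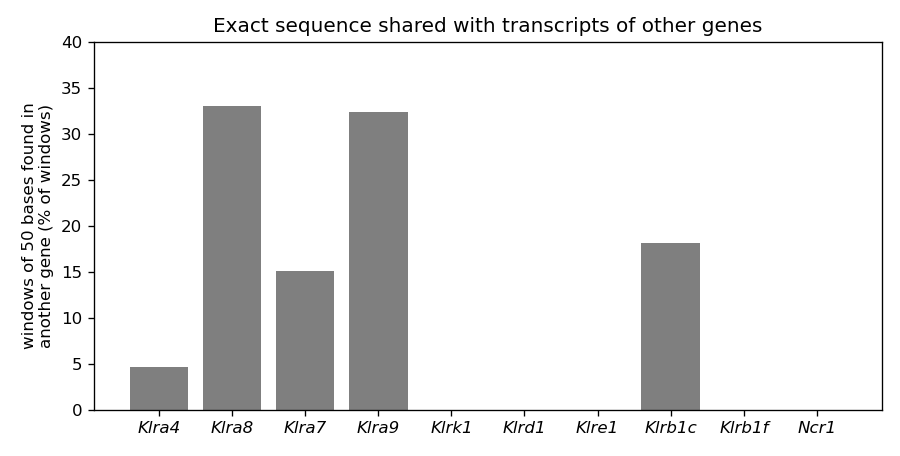
Share of all windows of 50 bases in the longest matched transcript of each receptor gene that occur without mismatch in a transcript of another gene (vertical axis, percent). Klra8 and Klra9 stand highest at 33.1% and 32.4%, Klrb1c and Klra7 follow at 18.1% and 15.1%, and 5 genes are at 0.

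All receptor genes except Klrd1 had a higher mean log2(FPKM + 1) in the CD4cre libraries, and 8 of 10 were above both controls in each of them, a pattern that 23.2% of all 12896 tested genes showed. None was called: limma gave 0 of 10 at an adjusted p under 0.05, where 0.0155% of all tested genes were called higher and 0.0388% lower. At an unadjusted p under 0.05 there were 6 of 10 higher, against 9.1% of all tested genes. On estimated fragments, limma-voom called 0 of 4 receptor genes, against 112 higher and 38 lower of 8082 tested genes. In that fit 3 of 4 were higher at an unadjusted p under 0.05, against 815 higher and 588 lower over all tested genes. The median difference (CD4cre minus control, on the log2(FPKM + 1) scale used throughout) was 1.82 for the receptor genes and -0.07 for all tested genes. All 10 passed the filter of a mean of at least 1 FPKM, but 7 of them had a mean under 1 in the controls, 5 being listed at 0 in both, and passed through the CD4cre libraries, so these counts describe the genes and are no separate support. Scaled to the T cell marker list, the median over all tested genes moved to 1.86 and that of the receptor genes to 3.23. Of 13283 genes tested under that scaling, limma called 8484 higher and 38 lower, against 2 and 5 on the deposited scale. The genes called higher included 8 of the 10 receptor genes (limma adjusted p 0.00609 to 0.0193), all but Klra4 and Klrd1. Under that scaling 8 of 10 receptor genes were higher without overlap, near the 82.7% of all tested genes. The calls are thus not particular to the receptor genes.

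**Figure D2:**
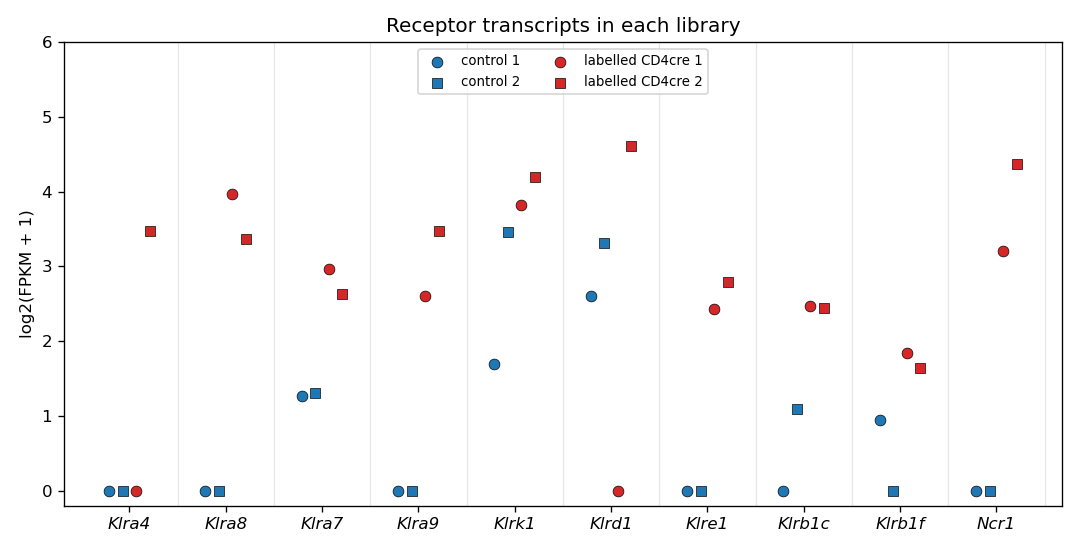
Level of each receptor transcript as log2(FPKM + 1) (vertical axis) in the controls (blue) and the CD4cre libraries (red), with circles for library 1 and squares for library 2. The red symbols lie above both blue symbols for 8 of the genes. Klra4 and Klrd1 have 1 red symbol at 0.

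Ncr1, which encodes the NKp46 receptor of NK cells and innate lymphocytes (NCBI gene 17086), was listed at 0 in both controls, and CD4cre libraries had 8.25 and 19.8 FPKM. The groups did not overlap. In limma the difference was 3.79 ± 0.59 (SE; adjusted p = 0.12), a size that depends on the pseudocount and is no fold change. These values rest on an estimated 6 and 16 fragments, with 95% Poisson intervals of 2.20 to 13.1 and 9.15 to 26.0. A count of 0 allows up to 3 fragments, which in the controls is 2.97 and 3.12 FPKM, and both values lie above it. The Poisson interval of a count of 0 reaches 3.69 fragments, so the interval of library CD4cre 1 overlaps those of the controls and that of library CD4cre 2 does not. Such intervals and limits cover counting error only. With fragments as the measure, limma-voom gave 4.75 ± 1.22 (SE, adjusted p = 0.0784) over genes with 1 transcript.

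The activating Ly49 receptors had unlike values in library CD4cre 1. Klra8, which encodes Ly49H, the receptor for a protein of mouse cytomegalovirus (NCBI gene 16639; chr6:130115226-130129898), was listed at 0 in both controls, and CD4cre libraries had 14.7 and 9.28 FPKM. It had the smallest p of the receptor genes, differing by 3.67 ± 0.52 (SE; limma adjusted p = 0.106), on an estimated 8.5 and 5.9 fragments. Klra4, which encodes Ly49D (NCBI gene 16635; chr6:130043730-130067301), was listed at 0 in 3 libraries and had 10.1 FPKM in library CD4cre 2 alone, on an estimated 6.9 fragments. Its groups overlapped at 0, and its adjusted p was 0.528 in limma. The listed 0 in library CD4cre 1 allows up to 4.90 FPKM, and without that library the difference was 3.48 in place of 1.74.

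Both inhibitory Ly49 receptors were higher in both CD4cre libraries than in either control. Klra9, which encodes Ly49I (NCBI gene 16640; chr6:130178626-130194374), was listed at 0 in both controls, against 5.10 and 10.2 FPKM, with an adjusted p of 0.139 in limma. Klra7, which encodes Ly49G (NCBI gene 16638; chr6:130218605-130233322), had 1.40 and 1.47 FPKM in controls against 6.83 and 5.18 in CD4cre libraries. The control values of Klra7 are worth 1 fragment each and the others 3 to 4, so their intervals overlap. Its difference was 1.51 ± 0.48 (SE, adjusted p = 0.236 in limma). A sum over the 4 Ly49 members depends less on how fragments were divided among them. It still depends on division with relatives outside them, such as Klra14-ps, Klra13-ps, Klra3 and Klra10. That sum was 1.40 and 1.47 FPKM in controls against 26.6 and 34.7 in CD4cre libraries. Klra8 supplied the most in the first of these libraries, while Klra9, Klra4 and Klra8 were nearly level at 10.2, 10.1 and 9.28 FPKM in the second.

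The NKG2 and CD94 group did not follow 1 pattern. Klrk1, which encodes NKG2D, the activating receptor for stress-induced class I relatives (NCBI gene 27007; chr6:129610323-129623903), had 2.24 and 10.1 FPKM in controls against 13.1 and 17.4 in CD4cre libraries. The groups did not overlap, but control 2 lay closer to library CD4cre 1 than to control 1. The difference was 1.43 ± 0.66 (SE, adjusted p = 0.365 in limma), and it was 0.55 without control 1 and 2.32 without control 2. Klrd1, which encodes CD94, the partner chain of the NKG2 receptors (NCBI gene 16643; chr6:129588092-129598775), had 5.10 and 8.91 FPKM in controls, was listed at 0 in library CD4cre 1 and had 23.4 FPKM in the second, the highest value of any receptor gene in any library. Its groups overlapped fully, with a difference of -0.66 ± 1.45 (SE, adjusted p = 0.854 in limma). Without library CD4cre 1 the difference was 1.65, and without library CD4cre 2 it was -2.96, so single libraries decided its direction. The listed 0 allows up to 6.91 FPKM in that library, which lies between the control values. Klre1, a lectin-like receptor that pairs with KLRI chains (NCBI gene 243655; chr6:129559365-129585828), was listed at 0 in both controls, and CD4cre libraries had 4.41 and 5.94 FPKM, on 2.8 and 4.2 estimated fragments (adjusted p = 0.152 in limma).

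The 2 NKR-P1 genes among the receptor genes described had at most 4.52 FPKM in any library. Klrb1c, which encodes NK1.1, a surface protein used to identify mouse NK cells (NCBI gene 17059; chr6:128778485-128788641), was listed at 0 in control 1, had 1.14 FPKM in control 2, and had 4.52 and 4.46 in the CD4cre libraries. The values did not overlap and were nearly equal within the second group, with a difference of 1.91 ± 0.62 (SE, adjusted p = 0.244 in limma). Klrb1f, an NKR-P1 receptor whose ligands are CLEC2 proteins (NCBI gene 232408; chr6:129045837-129059724), had 0.93 and 0 FPKM in controls against 2.59 and 2.11 in CD4cre libraries. Its values correspond to about 1 or 2 fragments in each library where it was above 0, and its difference was 1.27 ± 0.65 (SE, adjusted p = 0.412 in limma), or 0.79 without control 2.

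**Figure D3:**
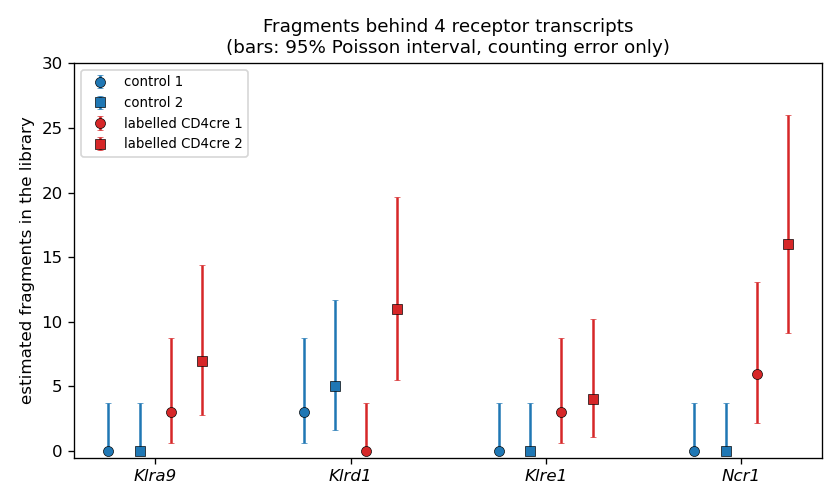
Estimated fragments (vertical axis) for the 4 receptor genes with 1 transcript in the table, in the controls (blue) and the CD4cre libraries (red), with bars for the 95% Poisson interval. The intervals of library CD4cre 2 lie above those of both controls for Ncr1, and the intervals of Klra9, Klrd1 and Klre1 overlap between the groups in at least 1 pair of libraries.

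The order of levels within a library also differed. FPKM is scaled to transcript length, so genes can be set side by side. In library CD4cre 1 the order began with Klra8 (14.7), Klrk1 (13.1) and Ncr1 (8.25 FPKM), and in the second with Klrd1 (23.4), Ncr1 (19.8) and Klrk1 (17.4 FPKM). Klrb1f was lowest of those above 0 in both. In control 1 Klrd1 led at 5.10 FPKM and in control 2 Klrk1 at 10.1 FPKM, and 6 of 10 receptor genes were listed at 0 in each control, against 2 and 0 in the CD4cre libraries. Neighbouring genes in these orders were mostly separated by a few fragments, less than their counting error. All 10 together summed to 9.67 and 21.6 FPKM in controls and to 59.5 and 108 FPKM in the CD4cre libraries, an estimated 6.2 to 10.2, 14 to 29.5, 35.2 to 53.2 and 68.6 to 93.6 fragments, the ranges coming from the shortest and longest transcript of each gene. In bulk RNA, more cells of any type that make these receptors and more receptor RNA per cell cannot be told apart. Nor can either be told from a larger share of the library as other RNA falls. Which cells held the receptor RNA was not tested.

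Being listed at 0 in both controls and above 0 in both other libraries was about as frequent over all genes as its mirror image. It held for 4 receptor genes (Ncr1, Klra8, Klra9 and Klre1) and for 1.05% of all tested genes (136). The mirror image, listed at 0 in both CD4cre libraries and above 0 in both controls, held for 1.12% (144). Klra4, also listed at 0 in both controls, was listed at 0 in library CD4cre 1 as well. Genes listed at 0 in both controls pass the filter only through the CD4cre libraries, so the 4 genes are described and are no separate support.

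Promoter sequence is shown for Ncr1 and Klra8, the members with the smallest p values (RefSeq, GRCm38.p6, 250 bases before to 50 after the start). All 10 genes were looked for and 9 had an entry, in 13 windows. Capitals mark the core motif of the RUNX factors, TGTGGT, or its reverse complement ACCACA.
Ncr1, chr7:4337465-4337764, plus strand: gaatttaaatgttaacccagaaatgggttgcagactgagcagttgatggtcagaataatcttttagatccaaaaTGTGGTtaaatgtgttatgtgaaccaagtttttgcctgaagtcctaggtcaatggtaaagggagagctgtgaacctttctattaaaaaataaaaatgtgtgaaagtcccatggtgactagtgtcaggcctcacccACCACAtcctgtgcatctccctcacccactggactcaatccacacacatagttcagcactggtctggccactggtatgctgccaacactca
Klra8, chr6:130129849-130130148, minus strand: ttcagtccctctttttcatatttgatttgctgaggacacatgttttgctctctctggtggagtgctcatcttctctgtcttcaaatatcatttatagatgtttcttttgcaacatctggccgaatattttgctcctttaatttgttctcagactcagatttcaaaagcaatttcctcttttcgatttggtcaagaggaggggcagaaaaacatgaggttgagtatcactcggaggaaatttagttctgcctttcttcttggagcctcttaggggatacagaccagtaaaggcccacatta
The motif occurred in 4 genes (Ncr1, Klrb1c, Klre1 and Klrk1; 5 of the 13 windows, some of which overlap), against 16.8% of all 32851 promoter windows. It was in no window of the 4 Ly49 genes. The T-box motif AGGTGTGA or its reverse complement TCACACCT was in no member window and in 1.28% of all windows. The NFIL3 site TTACGTAA was likewise in none, against 0.119% of all, as was the ETS motif CCGGAAGT or ACTTCCGG, against 3.89%. The windows of Klra4 and Klra8 shared an unbroken run of 37 bases, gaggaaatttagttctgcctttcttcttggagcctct, found in the windows of no other gene. These are matches of letters only.

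Other genes of the same receptor families were measured less completely. Of 20 listed, 15 were in the table and 13 were tested. None was called, 6 were higher and 1 was lower without overlap, and the median difference was 1.28. Over all tested genes, 23.2% were higher and 25.7% lower without overlap, and the median difference was -0.07. Klra2, a Ly49 gene made by myeloid cells, had 0.85 and 4.25 FPKM in controls against 37.4 and 21.4 in CD4cre libraries, more than any of the 4 Ly49 members. Klra13-ps, the pseudogene that shares sequence with Klra7, was listed at 0 in both controls, against 6.30 and 11.3 FPKM. Klrb1b, an inhibitory NKR-P1 receptor, had 0 and 4.07 against 8.14 and 15.8 FPKM. Klrc1 and Klrc2, the NKG2 chains that pair with CD94, overlapped between the groups, with 4.56 and 3.20 against 4.23 and 4.65 FPKM for Klrc1 and 0 and 2.18 against 0 and 2.56 FPKM for Klrc2. Klrg1, a receptor of mature NK cells and effector T cells, was the 1 lower without overlap, at 7.38 and 13.3 against 4.4 and 2.64 FPKM.

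The adaptors through which these receptors signal did not share 1 direction. Of 12 tested genes of the list, 7 were higher and 3 lower without overlap, against 23.2% and 25.7% of all tested genes. The median difference was 1.07 and none was called. Tyrobp, the adaptor of Ly49H and Ly49D and of many myeloid receptors, had 12.8 and 75.4 FPKM in controls against 371 and 327 in CD4cre libraries (difference 3.43 ± 0.78, SE, adjusted p = 0.159 in limma). Hcst, the adaptor of NKG2D, overlapped between the groups at 27.2 and 49.8 against 14.2 and 46.7 FPKM. Sh2d1b1, which encodes the SLAM adaptor EAT-2 of NK cells and phagocytes, had 1.01 and 2.12 against 12.7 and 21.5 FPKM, and Plcg2, a phospholipase of NK, B and myeloid cells, 2.31 and 5.53 against 31.2 and 21.8. Zap70, the kinase of T and NK cells, was lower, at 58.3 and 44.1 against 4.51 and 8.09 FPKM (difference -2.87 ± 0.41, SE, adjusted p = 0.106 in limma).

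Ligands of the receptors had no common direction. Of 14 tested, 2 were higher and 5 lower without overlap, against 23.2% and 25.7% of all tested genes. The median difference was -0.21, and none was called. H60a, a ligand of NKG2D, had 15.8 and 12.0 FPKM in controls against 3.31 and 1.67 in CD4cre libraries, whereas its relative H60c had 1.57 and 2.0 against 8.19 and 5.59. H2-K1, a class I molecule bound by inhibitory Ly49 receptors, had 800 and 705 against 523 and 467 FPKM.

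Genes of NK cell identity were not higher as a list. Of 24 tested, 9 were higher and 12 lower without overlap, against 23.2% and 25.7% of all tested genes. The median difference was -0.30 and none was called. Cd244, which encodes the SLAM receptor 2B4 of NK and other cells, had 0.38 and 2.38 FPKM in controls against 15.3 and 17.5 in CD4cre libraries, and Nfil3, a factor needed for NK cell development, had 1.42 and 1.49 against 9.90 and 8.89. Several genes that NK cells share with T cells were lower. Eomes, a T-box factor, had 27.1 and 33.3 against 16.5 and 17.5 FPKM, Tbx21, which encodes T-bet, 6.72 and 16.5 against 3.90 and 4.90, and Il2rb, the shared chain of the interleukin 2 and 15 receptors, 33.7 and 26.0 against 7.33 and 8.56. Zbtb16, the factor of natural killer T cells, was at most 0.73 FPKM in any library.

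Cytotoxic effector genes divided in the same libraries, with 4 higher and 8 lower without overlap of 13 tested. Over all tested genes the shares were 23.2% and 25.7%. The median difference of the list was -1.24 and none was called. Gzma, which encodes granzyme A, was listed at 0 in control 1, had 12.3 FPKM in control 2 and had 32.7 and 94.3 in the CD4cre libraries. Gzmb, which encodes granzyme B, had 21.4 and 88.8 against 4.26 and 20.4 FPKM. Prf1, which encodes perforin, overlapped at 6.31 and 5.25 against 6.81 and 2.62. Ifng had 58.9 and 60.5 against 15.1 and 4.51 FPKM, Ctsw 65.4 and 62.2 against 21.0 and 13.8, and the lysosomal Lamp1 33.3 and 37.6 against 108 and 102.

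Marker lists of other cells differed between the groups in either direction. The 16 T cell markers had a median difference of -2.46 and summed to 1579 and 1252 FPKM in controls against 342 and 317 in CD4cre libraries. Cd3e had 65.5 and 60.2 against 9.81 and 10.1 FPKM, and Cd4, a surface protein of the sort, 155 and 128 against 52.6 and 52.4. Cd3g, Lat and Lck had the smallest p values of that list, with adjusted p of 0.079, 0.082 and 0.082 in limma. The 18 macrophage and monocyte markers had a median difference of 3.77 and summed to 119 and 529 FPKM in controls against 2872 and 3310 in CD4cre libraries. Spic, a factor of splenic red pulp macrophages, had 2.29 and 8.42 against 97.4 and 119 FPKM, and Hmox1 and Cd14 were also higher without overlap. Adgre1, Cd14, Fcgr1, Marco and Mertk, named after their values were seen, were listed at 0 in control 1, and no marker of that list was at 0 in any other library. Dendritic cell markers (Cd209a, Batf3 and Cd74 leading by p) had a median of 1.98 with 7 of 13 higher and 1 lower without overlap. The lower 1 was Xcr1, with 73.35 and 62.79 against 46.67 and 48.48 FPKM, and the rest overlapped. For neutrophil markers (Ly6g, S100a8 and Csf3r leading) the median was 1.2 with 7 of 12 higher without overlap. Over all tested genes, 23.2% were higher and 25.7% lower without overlap. Of 5 tested B cell markers, Cd22 and Jchain were higher and Fcer2a lower without overlap, with 17.5 and 16.6 against 1.27 and 10.96 FPKM for Fcer2a. Red cell markers (Car1, Car2 and Hba-a1 leading) summed to 218 FPKM in control 1 and to 8221 FPKM in control 2, 6526 in CD4cre 1 and 5119 in CD4cre 2. Of 7 markers of CD8 and γδ T cells, 2 were in the table, and Cd8a had 12.6 and 8.20 against 26.1 and 14.1 FPKM, while Cd8b1 overlapped at 66.2 and 35.5 against 129.6 and 49.2. The part of these cells in the receptor values was not tested.

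**Figure D4:**
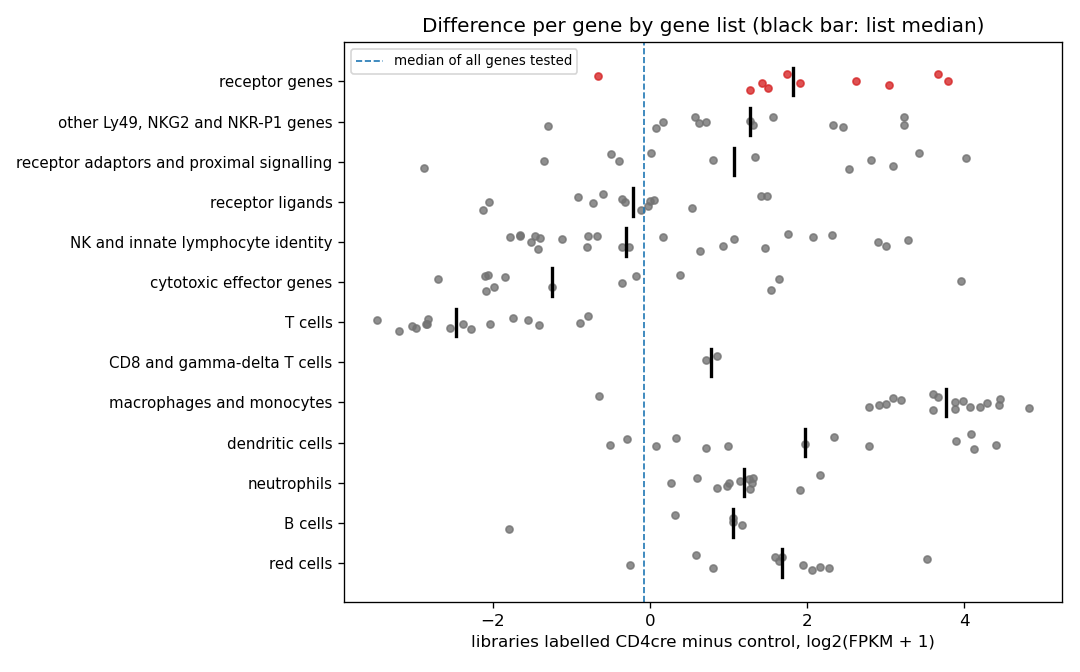
Difference per tested gene (CD4cre minus control, log2(FPKM + 1), horizontal axis) for the receptor genes (red) and the other gene lists (grey), with the list median as a black bar and the median of all tested genes as a dashed line. The receptor median of 1.82 lies between those of red cell markers (1.68) and dendritic cell markers (1.98). Neutrophil markers lie at 1.2, macrophage markers at 3.77 and T cell markers at -2.46.

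Position gave a further view of the same genes. Between the outermost receptor genes on chromosome 6, over 1455 kb, the table held 28 other genes, of which 24 were tested. The median difference of these was 1.22, against -0.07 for all tested genes. Without overlap, 13 were higher and 3 lower, against 23.2% and 25.7% of all tested genes. The higher ones included lectin genes of myeloid cells that lie between the NKR-P1 and the CD94 genes. Clec7a, which encodes the fungal receptor Dectin-1, had 2.68 and 9.23 FPKM in controls against 35.4 and 72.8 in CD4cre libraries, and Clec12a had 0.64 and 10.8 against 20.7 and 41.9. Cd69, an early activation marker of lymphocytes in the same stretch, was lower, at 39.2 and 29.0 against 6.20 and 5.56 FPKM. This interval and these 3 genes were chosen after the values were seen.

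**Figure D5:**
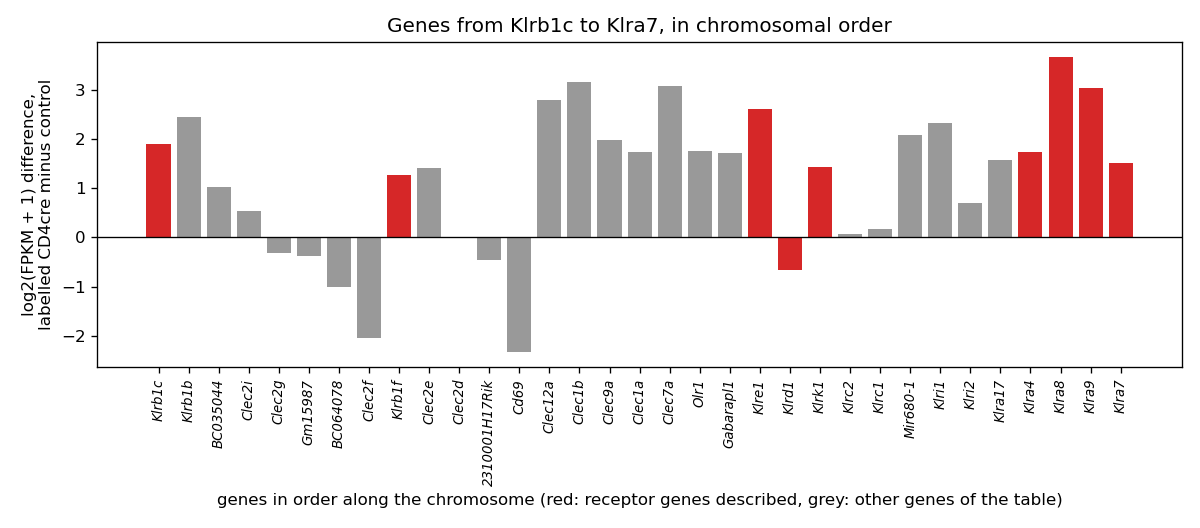
Difference on the log2(FPKM + 1) scale (vertical axis) for the tested genes from Klrb1c to Klra7, in their order on the chromosome, with receptor genes in red and other genes in grey. The values of Clec12a to Gabarapl1 all lie above 0, Cd69 and Clec2f lie lowest, and Klrd1 is the 1 receptor gene below 0.

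Genes whose centred profile over the 4 libraries lay nearest to the mean profile of the receptor genes were Casp6 (Euclidean distance 0.15), Cpq (0.18), Ctns (0.18), Fam184b (0.19) and Slc15a2 (0.19), all measured on log2(FPKM + 1). Casp6, which encodes a caspase, had 1.96 and 3.08 FPKM in controls against 9.55 and 19.6 in CD4cre libraries. In all 435 genes outside the receptor genes lay within a distance of 1, and the receptor genes themselves lay at 0.75 (Klre1) to 3.73 (Klrd1), so 4 libraries do not single out a profile.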

How the data were processed

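RNA-seq values of 16230 genes in 4 libraries were deposited by the authors as FPKM. The submitters' processing notes list HISAT, Bowtie2, RSEM and mm10, with no version or role. No source used here gives the strand setting. The receptor genes were found by symbol, and 16183 of the table's gene identifiers matched RefSeq's GRCm38.p6 annotation while 47 did not.

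The 12896 genes whose FPKM averaged 1 or more went into limma 3.58.1 (R 4.3.3). The model held the 2 groups, used log2(FPKM + 1) and let the prior variance follow mean level. Two-sided p-values were adjusted over every tested gene by the Benjamini-Hochberg method, and a gene was called where this p was under 0.05. On this scale the change of low genes is understated, and that of genes listed at 0 depends on the pseudocount. The procedure was tested on simulated counts in which some genes were raised and none lowered. The simulation left out the lowest genes and any change in cell mixture, so it does not show how the fit performs for the receptor genes.

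Fragments were estimated from genes with 1 transcript longer than 800 bases (10331 genes). FPKM times transcript length less 40 bases lay within 0.2 of a whole multiple of 1 common step for 79.0% to 80.7% of values under 5.5 fragments. The step and the 40 bases were chosen to bring low values of these same genes closest to whole multiples, so this closeness is no independent check. The step gives the depth of each library. Transcript lengths and sequences came from GENCODE vM21, and sequence comparisons used windows of 50 bases and Biopython 1.88.

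The receptor genes and the 12 other gene lists were chosen with earlier results of these data known. Besides the receptor genes, the text names up to 4 called genes of each list, or otherwise the 3 with the smallest unadjusted p, 13 genes fixed by name, and the 5 genes nearest in profile. Other genes named were chosen after their values were seen. Alternatives changed the pseudocount, the filter, the scaling, the trend, the replicate block and the libraries used, and limma-voom was run on the estimated fragments.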

Additional observations from a re-analysis of the deposited data

How the results depend on the processing

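No receptor gene was called in any alternative except scaling to the T cell markers, where 8 were (limma adjusted p 0.00609 to 0.0193). That scaling called 8484 genes higher and 38 lower of 13283 tested, and 82.7% of all tested genes were higher without overlap. Klrd1 turned direction with a pseudocount of 5 (0.01), with that scaling (0.78) and without library CD4cre 1 (1.65), its range without each library in turn being -2.96 to 1.65. The count of 8 receptor genes higher without overlap was 8 to 10 without each library in turn, while the share of all tested genes with that pattern went from 23.2% to between 33.5% and 37.7%, the last in the run that gave 10. It was 3 with a mean FPKM of at least 5, where 4 were tested, against 23.7% of all tested genes. With limma-voom it was 3, where 4 had 1 transcript, against 24% of all tested genes. The 2 genes called higher became 0 with a pseudocount of 0.1 or 5, no filter, a mean FPKM of at least 5, no trend, a replicate block, or without any single library (0 to 0). The 5 called lower became 0 under the same settings other than a pseudocount of 5 and a mean FPKM of at least 5, and without any single library (0 to 0). Under these settings with 0 calls, 691 to 1251 genes were higher and 428 to 1225 lower at an unadjusted p under 0.05 in limma. With limma-voom 112 were higher and 38 lower. The labels do not say whether library numbers pair the libraries. The differences between library 1 and 2 of each group had a correlation of 0 across genes. With 1 such difference per group, this cannot decide the question. Depth limits the receptor genes, since 3 fragments on a transcript of 1240 bases are worth 3.53 to 4.92 FPKM.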

Other observations

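The table held 16 Ly49 genes, 12 of them outside the receptor genes described, and 3 of the 16 were listed at 0 in all libraries. Klra18, Klra19 and Klra21 had identifiers with no match in RefSeq's GRCm38.p6 annotation. Summed over all 16, Ly49 levels were 3.43 and 12.1 FPKM in controls against 86.1 and 85.8 in CD4cre libraries 1 and 2. The last 2 sums were nearly equal, although single genes were not, and this equality depends on which genes are summed. Klra2, the Ly49 gene of myeloid cells, made up 37.4 and 21.4 FPKM of them. The 4 Ly49 members alone summed to 26.6 and 34.7 FPKM in CD4cre libraries 1 and 2. Klra3 had 12.4 FPKM in the first and was listed at 0 in the second, whereas Klra4, Klra10 and Klra18 were listed at 0 in the first and had 10.1, 5.22 and 5.42 FPKM in the second. Klra16 was above 0 in the controls alone, at 1.18 and 1.23 FPKM. These genes were chosen after their values were seen.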
